A study of Homo sapiens with 12 samples.

Results

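The 10 genes described here encode the main cytosolic and mitochondrial heat shock proteins: the HSP70 chaperones HSPA1A, HSPA1B and HSPA8, the HSP70 partners DNAJB1 and HSPH1, the HSP90 chaperones HSP90AA1 and HSP90AB1, the mitochondrial chaperonin genes HSPD1 and HSPE1, and the small heat shock protein HSPB1. They were taken by symbol, whatever their values, from 60649 genes, and all 10 passed the filter on low counts that left 16683 genes for testing. The 12 RNA-seq libraries came from spheroids of SBC3, an established human line of small cell lung cancer, with 3 libraries in each of 4 groups. The groups were control spheroids, spheroids given teriflunomide, spheroids given lurbinectedin and spheroids given both drugs, called the combination below. Teriflunomide inhibits DHODH, an enzyme of pyrimidine synthesis, and lurbinectedin binds DNA and blocks transcription. No dose or exposure time was given for either drug in the sources used here.

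Total counts per library ran from 23206414 to 33222162. The labels do not say whether the 3 libraries of a group came from separate cultures, so p-values measure only the spread between these libraries. Teriflunomide replicate 3 and combination replicate 2 stood apart from their groups, with 22.6% and 24.9% of counts on the mitochondrial genome against 8.42% to 8.43% and 13.1% to 14.6% in the other libraries of these groups. The range of that share was 6.26% to 7.17% for control libraries and 13.8% to 17.0% for lurbinectedin libraries. Counts of calls that change when these libraries are left out are given with and without them, and ratios and shares by library. CPM are counts relative to the library's size, which is its total counts for the cell type markers here and its effective size below. Of the small cell lung cancer markers, YAP1 was at 257 to 277 CPM in control, ENO2 at 39.8 to 43.3 and SYP at 17.7 to 18.7, whereas NEUROD1 was at 4.01 to 4.75 and DLL3 at no more than 2.31. POU2F3, CHGA and NCAM1 were at or under 0.260 CPM in control, and INSM1 had 0 counts in all 12 libraries. Of the immune, endothelial and fibroblast markers, CD3E and LUM had 0 counts, PTPRC, VWF and DCN had at most 3 and PECAM1 and CD14 at most 16 and 61 in any library, while COL1A1 and COL1A2 were at 277 to 297 and 278 to 305 CPM in control. In bulk RNA, fewer cells that express a gene and less RNA per cell cannot be told apart.

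Heat shock proteins are chaperones that hold unfolded proteins, help them fold or pass them on for degradation. HSP70 binds exposed peptides in a cycle that J-domain proteins such as DNAJB1 start and nucleotide exchange factors such as HSPH1 reset, HSP90 finishes the folding of kinases and receptors, and the HSPD1 ring with its HSPE1 lid folds proteins in the mitochondrial matrix. Some of the genes, such as HSPA8 and HSP90AB1, are active in unstressed cells, while HSPA1A, HSPA1B and DNAJB1 are classic targets of the transcription factor HSF1, which binds heat shock elements, tandem inverted repeats of GAA.

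The promoter windows are shown because this element is the known shared control site of the family and the members differed widely in their response. The RefSeq windows of GRCh38.p14 run from 250 bases before to 50 bases after each annotated start, and all 10 members were matched, with 16 windows among them. The motifs searched were the pairs GAANNTTC and TTCNNGAA, which read the same on both strands and can overlap each other, and a run of 3 units, which is GAANNTTC and TTCNNGAA sharing their middle unit, in either order. A match to either pair lay in 9 of the 16 windows, covering 8 of the 10 members (not HSPH1 or HSPE1), compared with 13.5% of all 35116 windows. The HSPE1 window began at chr2:197500129, so the HSPD1 stretch below, at chr2:197500061-197500090, lay outside it. That stretch nevertheless lay shortly upstream of the deposited HSPE1 start, chr2:197500140. The run of 3 units lay in 4 windows, those of HSPA8, HSP90AA1, HSP90AB1 and HSPD1, compared with 0.490% of all windows. GAANNTTC alone was in 6.77% and TTCNNGAA alone in 7.74% of all windows. A match describes the letters only and is not evidence that a factor was bound. The stretches below read 5′ to 3′ on the gene's strand, with the GAA and TTC units of the matched pairs in capitals. A further DNAJB1 window, chr19:14517888-14518187, also held GAANNTTC and is counted above, but its stretch is not shown.
HSPA1A, chr6:31815425-31815456, plus strand: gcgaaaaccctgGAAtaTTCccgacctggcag
HSPA1B, chr6:31827621-31827652, plus strand: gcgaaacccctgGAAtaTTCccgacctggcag
HSPA8, chr11:123062347-123062373, minus strand: cgagcttGAAagTTCcaGAAcgctgcg
HSPA8, chr11:123062172-123062198, minus strand: gggccccTTCtgGAAggTTCtaagata
DNAJB1, chr19:14518425-14518486, minus strand: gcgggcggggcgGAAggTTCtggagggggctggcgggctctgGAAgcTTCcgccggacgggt
HSP90AA1, chr14:102087093-102087144, minus strand: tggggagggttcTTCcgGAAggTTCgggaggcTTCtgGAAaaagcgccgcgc
HSP90AB1, chr6:44247766-44247802, plus strand: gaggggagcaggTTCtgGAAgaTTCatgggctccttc
HSP90AB1, chr6:44247819-44247855, plus strand: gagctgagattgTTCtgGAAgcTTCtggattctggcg
HSPD1, chr2:197500061-197500090, minus strand: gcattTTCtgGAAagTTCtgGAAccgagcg
HSPB1, chr7:76302479-76302510, plus strand: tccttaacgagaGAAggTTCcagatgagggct
In the deposited annotation, the HSPA1A, HSPA1B and HSPB1 stretches lay in no gene. Those of HSP90AA1, HSP90AB1 and DNAJB1 lay inside the gene's span but in no exon (DNAJB1's also within TECR), and those of HSPA8 and HSPD1 overlapped exons of the gene's own alternative transcripts.

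Some counts must be read with care. HSPA1A (ENSG00000204389.10, chr6:31815543-31817946) and HSPA1B (ENSG00000204388.7, chr6:31827738-31830254) are near-identical neighbours: 69.3% of the 75-base words of HSPA1A occur in HSPA1B, so reads may have been dropped or split between them and both are uncertain as single genes. HSPA1B also shares 920 exon bases with an unnamed gene on the same strand that had 0 to 2 counts. The other members shared 0% to 9.10% of their words with any other gene. On the same strand, HSPE1 shares 192 exon bases (10.5% of its exons) with HSPE1-MOB4, which had 0 to 6 counts. HSPA8 likewise shares 87 and 88 with SNORD14D and SNORD14C, which had 0 counts. HSPD1 (ENSG00000144381.18, chr2:197486584-197516737) and HSPE1 (ENSG00000115541.11, chr2:197500140-197503449) are head-to-head neighbours whose exons overlap by 135 bases on opposite strands, DNAJB1 (ENSG00000132002.9, chr19:14514769-14560391) overlaps TECR by 525 exon bases and HSP90AA1 (ENSG00000080824.19, chr14:102080742-102139699) overlaps WDR20 by 197. Strand use in counting is not given in the sources used here, so reads from these shared bases cannot be told apart. The remaining members are HSPA8 (ENSG00000109971.14, chr11:123057489-123063230), HSP90AB1 (ENSG00000096384.20, chr6:44246166-44253888), HSPH1 (ENSG00000120694.20, chr13:31134973-31162388) and HSPB1 (ENSG00000106211.10, chr7:76302673-76304295), all in hg38 coordinates as deposited.

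Levels were compared between genes per length, as TPM, the library's own share of counts after division by the deposited exon length. That length covers the exons of all annotated transcripts of a gene, such as 8188 bases for DNAJB1 and 2517 for HSPA1B. The order below depends on it. In control, DNAJB1 had 3429, 3471 and 3904 counts and HSPA1B 1156, 1208 and 1337, the reverse of their order in TPM. In control spheroids HSP90AB1 was highest at 3686 ± 55.7 TPM (SD, n = 3), followed by HSPA8 at 1968 ± 31.4 and HSP90AA1 at 1603 ± 56.3. HSPD1 stood at 815 ± 21.7 TPM, HSPH1 at 211 ± 5.39, HSPE1 at 197 ± 4.25, HSPA1B at 63.4 ± 0.518 and DNAJB1 at 56.9 ± 1.27. At the bottom were HSPA1A at 2.05 ± 0.197 and HSPB1 at 1.72 ± 0.320 TPM, the only neighbours in this order whose control libraries overlapped. HSPB1 rested on 14 to 31 counts per library and HSPA1A on 16 to 150, whereas HSPA8 had 60973 to 84384. With lurbinectedin HSP90AA1 (1671 ± 103 TPM) and HSPA8 (1658 ± 103) overlapped. The 10 genes together took 0.998% to 1.04% of all counts in control libraries and 0.907%, 0.851% and 0.800% in teriflunomide replicates 1 to 3. The share was 1.20% to 1.27% in lurbinectedin libraries and 1.12% to 1.14% in combination libraries, where replicate 2 had the lowest value.

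**Figure D1:**
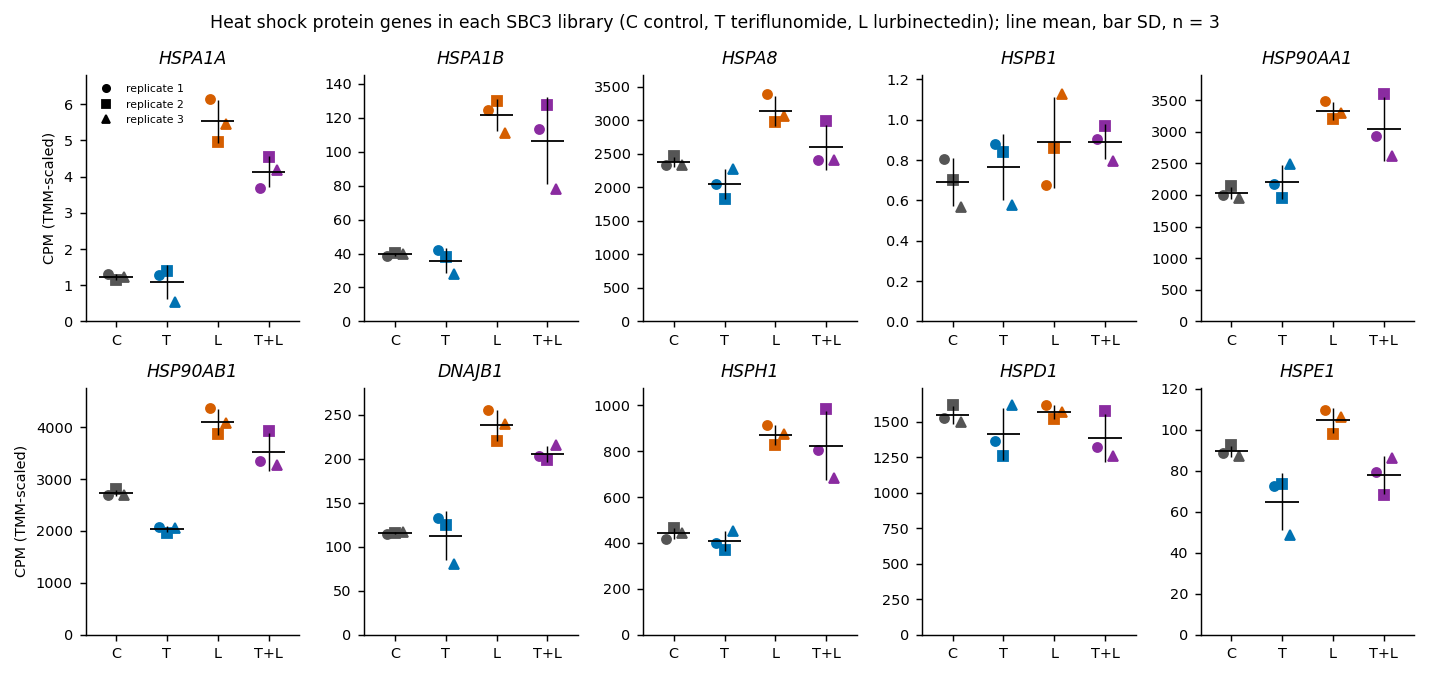
CPM on effective library sizes of each of the 10 genes in each of the 12 libraries (C control, T teriflunomide, L lurbinectedin, T+L combination), with the mean and SD of 3 libraries; each panel has its own axis from 0. Lurbinectedin and combination libraries lie above every control library for HSPA1A, HSPA1B, HSP90AA1, HSP90AB1, DNAJB1 and HSPH1, and the circles, squares and triangles mark replicates 1, 2 and 3.

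Lurbinectedin against control asked how the chemotherapeutic drug alone changed the family. The stress-inducible HSP70 genes HSPA1A and HSPA1B rose most, with log2 fold changes of 2.17 and 1.62, the latter 3.06-fold. The co-chaperones DNAJB1 and HSPH1 rose 2.05-fold and 1.97-fold, and HSP90AA1, HSP90AB1 and HSPA8 rose by 0.71, 0.59 and 0.41 on the log2 scale. These values are on the TMM-scaled CPM. By mean TPM, in which mitochondrial and other short transcripts weigh more, HSPA8 and HSP90AB1 were lower with lurbinectedin than in control, HSP90AB1 with overlap. HSPE1, HSPB1 and HSPD1 did not pass the test. A call means an adjusted p under 0.05 from the quasi-likelihood test of edgeR, with Benjamini-Hochberg adjustment over 16683 genes. Of the members, 7 of 10 were called higher and none lower, beside 71.6% of all genes called and 36% called higher. The groups did not overlap for 8 members, beside 83.2% of all genes. The median log2 fold change of the members was 0.65 and that of all genes 0.05. Most genes of this series moved with lurbinectedin, so the members' count of calls is read beside those shares and not as a property of the family.

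Among the HSP70 genes, HSPA1A was at 1.31, 1.14 and 1.22 CPM in control replicates 1 to 3 and at 6.15, 4.97 and 5.45 CPM with lurbinectedin. Its log2 fold change was 2.17 (SE 0.25, adjusted p = 2.59e-06 by edgeR). HSPA1B, the copy with most of the pair's counts, was at 38.7, 40.4 and 39.9 CPM in control and 124, 130 and 111 with lurbinectedin, a log2 fold change of 1.62 (SE 0.18, adjusted p = 1.73e-06 by edgeR). Every lurbinectedin library was above every control library for both copies. With the 2 genes summed into 1, the log2 fold change was 1.64 (SE 0.17), a value that does not depend on how reads were split between them. HSPA8, the constitutive HSP70, was at 2331, 2460 and 2328 CPM in control and 3395, 2968 and 3067 with lurbinectedin. Its log2 fold change was 0.41 (95% interval 0.16 to 0.65, adjusted p = 0.00541 by edgeR). When libraries were scaled by total count alone, HSPA8 was at 0.17 and was no longer called (adjusted p = 0.0768).

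DNAJB1, the J-domain protein that starts the HSP70 cycle on stress substrates, was at 115, 116 and 117 CPM in control and 255, 220 and 239 with lurbinectedin. The log2 fold change was 1.04 (SE 0.15, adjusted p = 2.18e-05 by edgeR). HSPH1, the exchange factor also known as HSP105, was at 419, 464 and 441 CPM in control and 915, 827 and 873 with lurbinectedin, a log2 fold change of 0.98 (SE 0.13). Both partner genes therefore lay well apart from control in all 3 libraries.

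The HSP90 genes rose less. HSP90AA1, the stress-inducible cytosolic form, was at 2004, 2141 and 1949 CPM in control and 3482, 3203 and 3296 with lurbinectedin, a log2 fold change of 0.71 (SE 0.12). HSP90AB1, the constitutive form, was at 2700, 2806 and 2689 CPM in control and 4369, 3861 and 4072 with lurbinectedin, a log2 fold change of 0.59 (SE 0.097). Neither gene's lurbinectedin libraries overlapped control.

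The mitochondrial chaperonin and the small heat shock protein showed no call. HSPD1 was at 1524, 1615 and 1498 CPM in control and 1619, 1520 and 1566 with lurbinectedin, and its log2 difference of 0.02 had a 95% interval of -0.22 to 0.26. HSPE1 was at 88.7, 92.5 and 87.3 CPM in control and 110, 98.1 and 106 with lurbinectedin: the groups did not overlap, but the log2 difference of 0.23 (95% interval -0.08 to 0.53) had an adjusted p of 0.169 by edgeR. HSPE1 was called higher, at 0.21, when only the groups compared were fitted (adjusted p = 0.00131) and without teriflunomide replicate 3 and combination replicate 2 (adjusted p = 0.00556). HSPB1, which holds unfolding proteins, was at 0.568 to 0.804 CPM in control and 0.678 to 1.13 with lurbinectedin, too few counts to bound its log2 difference of 0.38 more closely than -0.20 to 0.96. When libraries were scaled by total count alone, the median over all genes moved to -0.18, HSPE1 to -0.01 and HSPD1 to -0.21, where HSPD1 was called lower (adjusted p = 0.0231).

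The scale set the direction of the mean difference for HSPA8 and HSP90AB1, and for HSPE1 and HSPB1, which were not called. In TPM, HSPA1B went from 63.4 ± 0.518 in control to 123 ± 5.89 with lurbinectedin (SD, n = 3), HSPA1A from 2.05 ± 0.197 to 5.87 ± 0.574, DNAJB1 from 56.9 ± 1.27 to 74.4 ± 6.52 and HSPH1 from 211 ± 5.39 to 266 ± 19.6. With lurbinectedin these 4 genes were higher on either scale. HSP90AA1 was at 1603 ± 56.3 and 1671 ± 103 TPM, a difference smaller than the SD of the lurbinectedin libraries. HSP90AB1 was at 3686 ± 55.7 and 3522 ± 251 TPM and HSPA8 at 1968 ± 31.4 and 1658 ± 103, so these constitutive genes, called higher in TMM-scaled CPM, were lower in mean TPM. The HSPA8 groups did not overlap in TPM. Those of HSP90AB1 did, at 3519, 3272 and 3775 with lurbinectedin against 3630 to 3742 in control. HSPD1, near control in CPM, was at 815 ± 21.7 and 527 ± 35.3 TPM. HSPE1 was at 197 ± 4.25 and 147 ± 12.9 TPM, without overlap, and HSPB1 at 1.72 ± 0.320 and 1.42 ± 0.463, with overlap. HSPE1 and HSPB1 were thus lower in mean TPM but higher in mean CPM. With the combination HSP90AB1 was at 3274, 2529 and 3508 TPM, all below control, and HSP90AA1 at 1674, 1352 and 1638, where only replicate 2, the library that stood apart, was below the control libraries. No test was run on TPM.

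**Figure D2:**
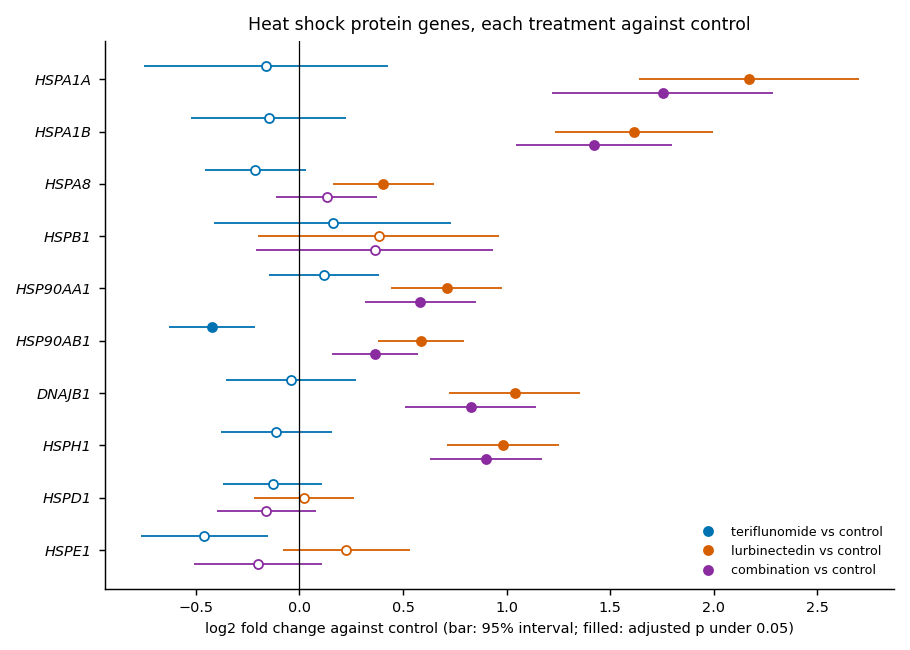
Log2 fold change against control of the 10 genes for teriflunomide, lurbinectedin and the combination, with 95% intervals from the edgeR fit to 12 libraries; filled points passed an adjusted p under 0.05. HSPA1A and HSPA1B lie farthest right with lurbinectedin at 2.17 and 1.62, and HSP90AB1 is the only filled point for teriflunomide, at -0.42.

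Genomic span moved with the response to lurbinectedin across all genes. With genes in 5 bins of like size by span, the median log2 fold change was 0.69 in the shortest bin (53 to 5261 bases), then 0.62, 0.28 and -0.36, and -1.86 in the longest. HSPA1A, HSPA1B, HSPB1 and HSPE1 belong to the shortest bin, where HSPA1A and HSPA1B lay above its median and HSPB1 and HSPE1 below it. HSPA8 and HSP90AB1 belong to the second bin and lay below its median of 0.62. HSPH1, at 0.98, and HSPD1, at 0.02, fall in the third bin on either side of its median of 0.28. HSP90AA1 (58958 bases) and DNAJB1 (45623 bases) belong to the fourth bin, whose median was -0.36, and lay at 0.71 and 1.04. Span here runs from the first to the last exon base over all annotated transcripts of a gene. Both genes also have annotated starts inside that span, near the promoter stretches shown above. Transcripts from those starts cover fewer bases, so the bin of these 2 genes depends on the start used, which was not tested. The part of span in any member's value was not tested.

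The combination against control shares its control libraries with the other comparisons with control. Called higher were 6 of the 10 genes: HSPA1A (1.75), HSPA1B (1.42), HSPH1 (0.90), DNAJB1 (0.83), HSP90AA1 (0.58) and HSP90AB1 (0.36), all log2 fold changes. None was called lower. All-gene shares were 68.4% called and 34.1% called higher, and 7 members had groups that did not overlap, beside 77.2% of all genes. The median over the members was 0.47, and 0.04 over all genes. HSPA8 was at 2406, 2989 and 2403 CPM with the combination, a log2 difference of 0.13 (95% interval -0.11 to 0.37, adjusted p = 0.317 by edgeR). HSPD1 (-0.16), HSPE1 (-0.20) and HSPB1 (0.36) did not pass the test either. HSPA1A was at 3.69, 4.55 and 4.18 CPM and HSPA1B at 114, 128 and 78.1 CPM, so the lowest HSPA1B library was still above every control library. DNAJB1 was at 203, 198 and 215 CPM, the tightest of the called members on that scale. In TPM it was at 72.3, 46.4 and 84.1, with replicate 2 below the control libraries (55.5 to 58.0). HSP90AA1 was at 2926, 3600 and 2609 CPM and HSPH1 at 804, 984 and 683, with replicate 2 the highest for both. HSP90AB1 was at 3346, 3937 and 3267 CPM. Scaled by total count alone, the all-gene median was -0.13, HSP90AB1 was at 0.19 and lost its call (adjusted p = 0.0980), HSPA8 was at -0.05, and HSPD1 was called lower at -0.34. Without combination replicate 2, HSPD1 was called lower at -0.27 (adjusted p = 0.0374 by edgeR), as it was without teriflunomide replicate 3 as well (adjusted p = 0.00116).

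The combination against teriflunomide measured what lurbinectedin did on top of teriflunomide, in libraries that the lurbinectedin to control comparison does not use. Scaling and spread were still estimated over all 12 libraries together. Called higher were 7 of 10 members, beside 70.9% of all genes called and 35.2% called higher: HSPA1A (1.92), HSPA1B (1.57), HSPH1 (1.01), DNAJB1 (0.87), HSP90AB1 (0.79), HSP90AA1 (0.46) and HSPA8 (0.34), all log2 fold changes. HSPD1 (-0.03), HSPB1 (0.20) and HSPE1 (0.26) did not pass the test. Groups did not overlap for 7 members, beside 70.7% of all genes. HSPA8 had an adjusted p of 0.0145 by edgeR and lost its call without teriflunomide replicate 2 (0.26, adjusted p = 0.0818), without combination replicate 2 (0.24, adjusted p = 0.0549) and when only the groups compared were fitted (0.35, adjusted p = 0.0872).

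Teriflunomide against control asked how the chaperones differed with that drug alone. HSP90AB1 fell to 0.746-fold of control. It was at 2700, 2806 and 2689 CPM in control and 2083, 1964 and 2065 with teriflunomide, without overlap, a log2 fold change of -0.42 (SE 0.097, adjusted p = 0.0230 by edgeR). That was 1 of 10 members called, beside 6.01% of all genes called and 2.13% called lower. The groups did not overlap for 3 members (HSPA8, HSP90AB1 and HSPE1), beside 36.8% of all genes, and the medians were -0.14 for the members and 0.03 for all genes. The HSP90AB1 call was lost without any 1 of the 3 control libraries or without teriflunomide replicate 2 (adjusted p = 0.0699 to 0.112), while its value stayed between -0.39 and -0.43 in those fits.

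HSPE1 was at 72.8, 73.5 and 48.9 CPM with teriflunomide against 87.3 to 92.5 in control, a log2 difference of -0.46 (95% interval -0.77 to -0.15, adjusted p = 0.0723 by edgeR). It was called lower with no filter on low counts (adjusted p = 0.0161) and by DESeq2 (adjusted p = 0.0332). HSPA8 was at 2049, 1826 and 2271 CPM, all below control, with a log2 difference of -0.21 (adjusted p = 0.260 by edgeR). HSP90AA1 was at 2177, 1952 and 2495 CPM, a log2 difference of 0.12, and HSPD1 at 1363, 1259 and 1617, a difference of -0.13. Replicate 3 was the highest library for HSPA8, HSP90AA1, HSPD1 and HSPH1 and the lowest for HSPA1A, HSPA1B, DNAJB1, HSPE1 and HSPB1. DNAJB1 was at 133, 125 and 80.6 CPM, HSPA1B at 41.9, 37.8 and 27.7 and HSPA1A at 1.29, 1.41 and 0.545, so all 3 low values are from the library with the mitochondrial share of 22.6%. Without that library the log2 difference was 0.15 for DNAJB1, 0.00 for HSPA1B and 0.14 for HSPA1A, compared with -0.04, -0.15 and -0.16 with it, and none was called in either fit. The part of the mitochondrial share in these values was not tested.

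With teriflunomide replicate 3 and combination replicate 2 both left out, 4 of 10 members were called lower with teriflunomide. Of all genes, 16.3% were called and 7.07% called lower. The members called were HSP90AB1, HSPA8 (-0.29), HSPE1 (-0.29) and HSPD1 (-0.24). The adjusted p of the last 3 lay between 0.00971 and 0.0189 by edgeR.

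The combination against lurbinectedin measured what teriflunomide added to lurbinectedin, in libraries apart from those of teriflunomide against control. The fit nevertheless shares its scaling and estimate of spread over all 12 libraries, so these comparisons are not fully separate tests. All 10 fitted log2 differences were below 0, from -0.43 for HSPE1 and -0.41 for HSPA1A to -0.02 for HSPB1, with a median of -0.20 beside 0.03 for all genes. The mean CPM of HSPB1 was not lower, at 0.891 ± 0.0868 in combination libraries against 0.888 ± 0.226 in lurbinectedin libraries (SD, n = 3). None was called by edgeR, where 0 of 16683 genes were called (percent called 0), or by DESeq2. At an unadjusted p under 0.05 there were 3 members, HSPE1, HSPA8 and HSP90AB1, and 2599 genes in all. Groups did not overlap for 3 members (HSPA1A, DNAJB1 and HSPE1), beside 23.7% of all genes. HSPE1 was at 79.4, 68.1 and 86.3 CPM with the combination, below the 98.1 to 110 CPM of lurbinectedin. HSPA1A reached 4.55 CPM at most, compared with at least 4.97 with lurbinectedin.

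Without teriflunomide replicate 3 and combination replicate 2, 7 of 10 members were called lower with the combination than with lurbinectedin, beside 21.5% of all genes called and 10.1% called lower. They were HSPA1A (-0.48), HSPA8 (-0.38), HSPE1 (-0.33), HSP90AB1 (-0.31), HSPD1 (-0.28), HSP90AA1 (-0.26) and HSPH1 (-0.23), with adjusted p from 0.00133 for HSPA8 to 0.0417 for HSPH1 by edgeR. Without combination replicate 2 alone, none of the 10 was called. The direction was the same for every member in all 3 fits, and the calls rest on leaving out both libraries. Teriflunomide replicate 3 is in neither group of this comparison. It enters only through what the joint fit shares between groups, such as the spread. Over all genes, 259 were called without combination replicate 2 alone and 3640 without both libraries.

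**Figure D3:**
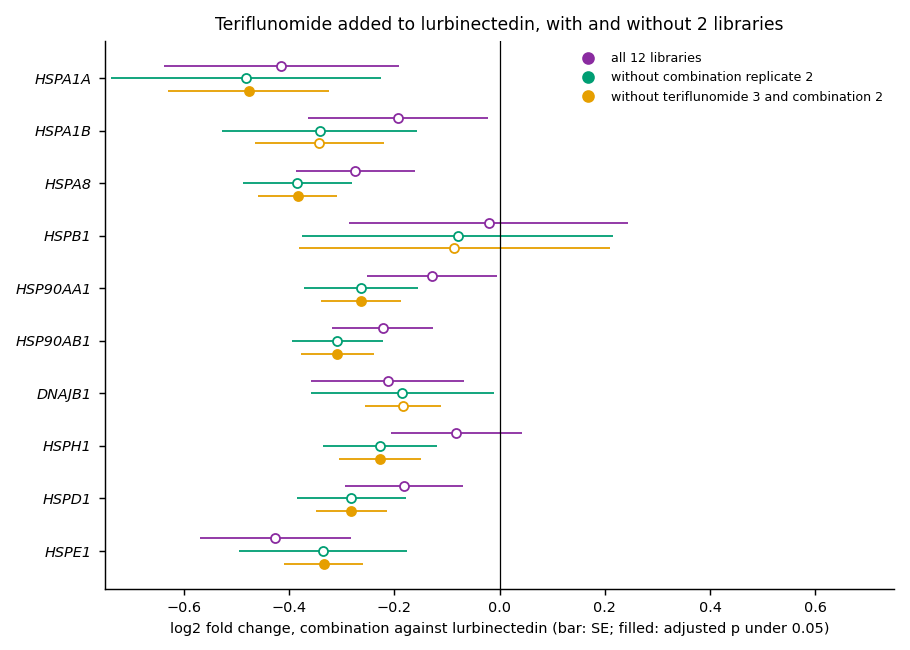
Log2 fold change of the combination against lurbinectedin for the 10 genes, with SE, fitted with all 12 libraries, without combination replicate 2, and without that library and teriflunomide replicate 3; filled points passed an adjusted p under 0.05. All points lie left of 0, and the filled points, 7 in number, appear only in the fit without both libraries.

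The interaction asked whether the effect of teriflunomide differed with and without lurbinectedin. No member was called, beside 0.258% of all genes, and none had an unadjusted p under 0.05. By DESeq2 no member was called either. The largest values were -0.25 for HSPA1A (SE 0.35), -0.25 for HSP90AA1 (SE 0.18) and 0.20 for HSP90AB1 (SE 0.14), and the smallest adjusted p was 0.662 by edgeR. The 95% interval for HSP90AB1 was -0.09 to 0.49, so the lower level seen with teriflunomide alone is not shown to differ from that on top of lurbinectedin. Without both libraries that stood apart, 1 member was called, DNAJB1, at -0.33 (adjusted p = 0.0393 by edgeR), beside 10.9% of all genes.

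Ratios of TPM within a library compare partner genes without a scaling factor between libraries, and they are given with no test. HSPA1A plus HSPA1B per HSPA8, the inducible over the constitutive HSP70, was 0.0332, 0.0326 and 0.0341 in control and 0.0742, 0.0874 and 0.0734 with lurbinectedin, a mean ratio 2.35 times that of control. It was 0.0940, 0.0854 and 0.0661 with the combination, and 0.0407, 0.0414 and 0.0240 with teriflunomide, where replicate 3 lay below control and the other 2 above. HSP90AA1 per HSP90AB1 was 0.424 to 0.446 in control and 0.611, 0.581 and 0.706 with teriflunomide, 1.46 times control (1.37 times without replicate 3) and without overlap. It was 0.466 to 0.485 in lurbinectedin libraries and 0.467 to 0.535 in combination libraries, both above control and below every teriflunomide library. HSPD1 per HSPE1 was 4.10 to 4.17 in control and 3.52 to 3.71 with lurbinectedin, without overlap. That ratio was 7.90 in teriflunomide replicate 3 and 5.53 in combination replicate 2, the 2 libraries with the highest mitochondrial share, and 3.48 to 4.47 in the other 4 libraries given teriflunomide.

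**Figure D4:**
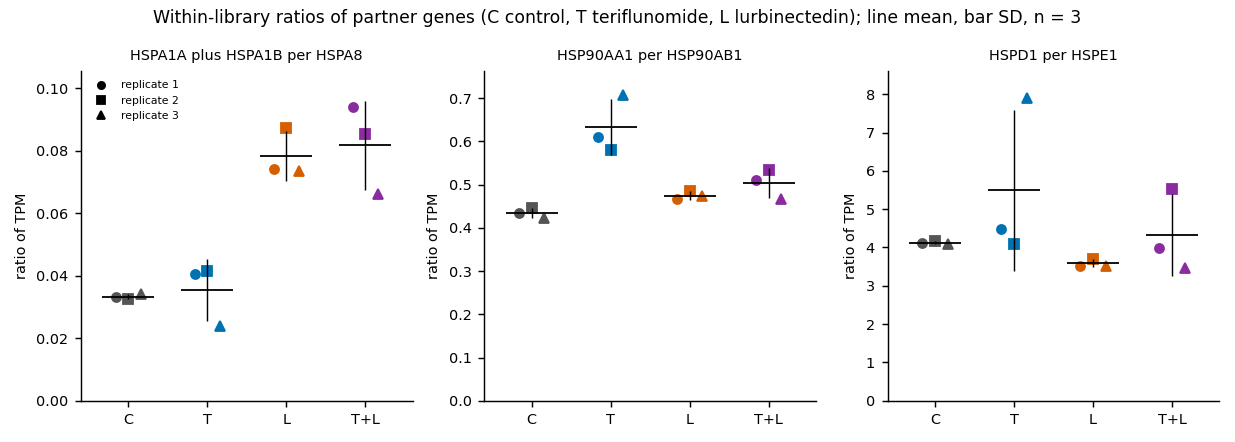
Ratio of TPM between partner genes in each of the 12 libraries, with the mean and SD of 3 libraries per group; each axis starts at 0. The HSP70 ratio is higher in the 6 libraries with lurbinectedin, the HSP90 ratio is highest with teriflunomide at 0.581 to 0.706, and the mitochondrial ratio is highest in teriflunomide replicate 3 at 7.90.

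The rest of the chaperone system was read from 9 lists of 102 genes, of which 91 were tested. With lurbinectedin 45 were called higher and 11 lower, beside 36% and 35.7% of all genes, and their median was 0.32 on the log2 scale beside 0.05 for all genes. Scaled by total count alone the split was 35 higher and 20 lower. The combination gave 39 higher and 16 lower, beside 34.1% and 34.4% of all genes, and scaled by total count alone 29 and 23. With teriflunomide 5 were higher and 7 lower, beside 3.88% and 2.13% of all genes, with a median of -0.10 beside 0.03. None was called for the combination against lurbinectedin by edgeR with all 12 libraries, as for all genes. The lists were not read in the alternative fits for this comparison, such as the fit without both libraries that stood apart.

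Of 6 tested HSF factors and regulators, 3 were called higher with lurbinectedin, beside 36% of all genes. HSF1, the main heat shock transcription factor, was at 105.6 ± 4.08 CPM in control and 182 ± 14.4 with lurbinectedin, a log2 fold change of 0.79 (SE 0.19, adjusted p = 0.00211 by edgeR), which lost its call when scaled by total count alone (0.55, adjusted p = 0.0699). HSF2 was at 134 ± 0.388 and 139 ± 2.44 CPM, a log2 difference of 0.06. IER5, known to promote HSF1 activity, rose from 24.2 ± 0.505 to 201 ± 16.0 CPM, a log2 fold change of 3.06. HSF2BP was called at 0.75 but lost its call in 8 of 16 alternatives, among them DESeq2 (adjusted p = 0.0504), no filter (0.0970), library size only (0.150) and leaving out control replicate 2 or any 1 lurbinectedin library (0.0501 to 0.0776). With the combination HSF1 was at 0.42 (adjusted p = 0.0634 by edgeR). Only IER5 of the 6 was called there, at 2.85, beside 68.4% of all genes called. HSF1 was called higher with the combination with no filter (adjusted p = 0.0208), with a filter of 1 CPM (0.0440), with only the groups compared (0.000508) and without both libraries that stood apart (7.09e-05). HSF2BP was called there without combination replicate 1 (adjusted p = 0.0423). With teriflunomide HSF2BP fell by 1.19, a call lost without any 1 control library or without teriflunomide replicate 2 or 3 (adjusted p = 0.0643 to 0.146), and HSF1 was at -0.31 (adjusted p = 0.333 by edgeR).

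Of 18 other HSF1 target and stress-induced chaperone genes, 11 were called higher and none lower with lurbinectedin, with a median of 0.67. The shares of all genes were 36% higher and 35.7% lower. BAG3, which links HSP70 to autophagy, rose from 55.1 ± 1.64 to 126 ± 9.11 CPM, a log2 fold change of 1.19, and CRYAB, a small heat shock protein, from 2.96 ± 0.315 to 13.7 ± 0.907, a change of 2.21. DEDD2 rose by 1.72 on the log2 scale. With the combination 11 were higher and 2 lower, beside 34.1% and 34.4% of all genes. With teriflunomide CRYAB rose by 0.61 and FKBP4, an HSP90 co-chaperone, fell by 0.42. Both of these calls were lost without any 1 control library (adjusted p = 0.0586 to 0.147) or without teriflunomide replicate 2.

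In the other HSP70 family list, 3 of 9 tested genes were called higher with lurbinectedin, beside 36% of all genes. The called genes were HSPA2, the testis-enriched form, at 2.16, the stress-inducible HSPA6 at 1.73 and the mitochondrial HSPA9 at 0.54. HSPA9 was at 642 ± 4.75 CPM in control and 936 ± 38.8 with lurbinectedin, so the mitochondrial HSP70 rose while the mitochondrial chaperonin gene HSPD1 had an interval around 0; the difference between these genes was not tested. With the combination 4 were higher and 3 lower, beside 34.1% and 34.4% of all genes. With teriflunomide HSPA2 rose by 0.77 and HSPA12A by 0.47, and HSPA14 fell by 0.54. The HSPA12A call was lost without any 1 control library or teriflunomide replicate 2, the HSPA14 call without control replicate 2 or 3, and the HSPA2 call with library size only (adjusted p = 0.0580).

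Among 18 HSP90 family and co-chaperone genes, 9 were called higher and 5 lower with lurbinectedin, beside 36% and 35.7% of all genes. AHSA1, which activates the HSP90 ATPase, rose by 0.82 and AHSA2P by 1.47, while FKBP5 fell by 1.30. TRAP1, the mitochondrial HSP90, fell by 0.54 under teriflunomide, by 0.59 under lurbinectedin and by 0.92 under both drugs, from 220 ± 6.36 CPM in control to 116 ± 13.0. CDC37L1 rose by 0.72 with teriflunomide. The teriflunomide calls of TRAP1 and CDC37L1 were lost without any 1 control library (adjusted p = 0.0735 to 0.140), and that of CDC37L1 also without teriflunomide replicate 3. With the combination 9 were higher and 6 lower, beside 34.1% and 34.4% of all genes.

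Of 15 tested cytosolic J-domain genes, 7 were called higher and 3 lower with lurbinectedin, beside 36% and 35.7% of all genes. The called genes included DNAJC9 at 1.04, DNAJB5 at 1.10 and DNAJC13 at -2.10. DNAJB5 also rose with the combination (1.32). With teriflunomide it was called at 0.46 but lost its call in 10 of 16 alternatives, among them leaving out any 1 control library (adjusted p = 0.0839 to 0.129) or teriflunomide replicate 1 or 2. Of 8 nucleotide exchange factors, 4 were called higher and none lower with lurbinectedin, beside 36% and 35.7% of all genes. Among those called were BAG1 at 1.77, from 48.0 ± 2.10 to 164 ± 12.4 CPM, and BAG5 at 0.96. Of the small heat shock proteins, 2 of 9 were tested, CRYAB and HSPB6, and HSPB6 was at 0.21 (SE 0.49).

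Of 15 mitochondrial chaperones and proteases, 6 were called higher and 3 lower with lurbinectedin, beside 36% and 35.7% of all genes. GRPEL1, the exchange factor of mitochondrial HSP70, rose by 1.20 and SPG7, a mitochondrial protease subunit, by 0.88, whereas CLPB, a mitochondrial disaggregase, fell by 3.67, from 80.5 ± 2.39 to 6.32 ± 0.552 CPM. With teriflunomide TRAP1, GRPEL1 (-0.44) and DNAJA3 (-0.57) fell, and each of these calls was lost without any 1 control library (adjusted p = 0.0735 to 0.135), and those of GRPEL1 and DNAJA3 also without teriflunomide replicate 2. Of 14 TRiC chaperonin and prefoldin genes, 9 were called higher and 1 lower with lurbinectedin, beside the same 36% and 35.7% of all genes. The called genes included PFDN5 at 1.57, TCP1 at 0.64 and CCT6A at 0.59. With the combination 5 of these 14 were higher, beside 34.1% of all genes. With teriflunomide CCT4 fell by 0.37, a call lost without any 1 control library (adjusted p = 0.115 to 0.122) or teriflunomide replicate 2.

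**Figure D5:**
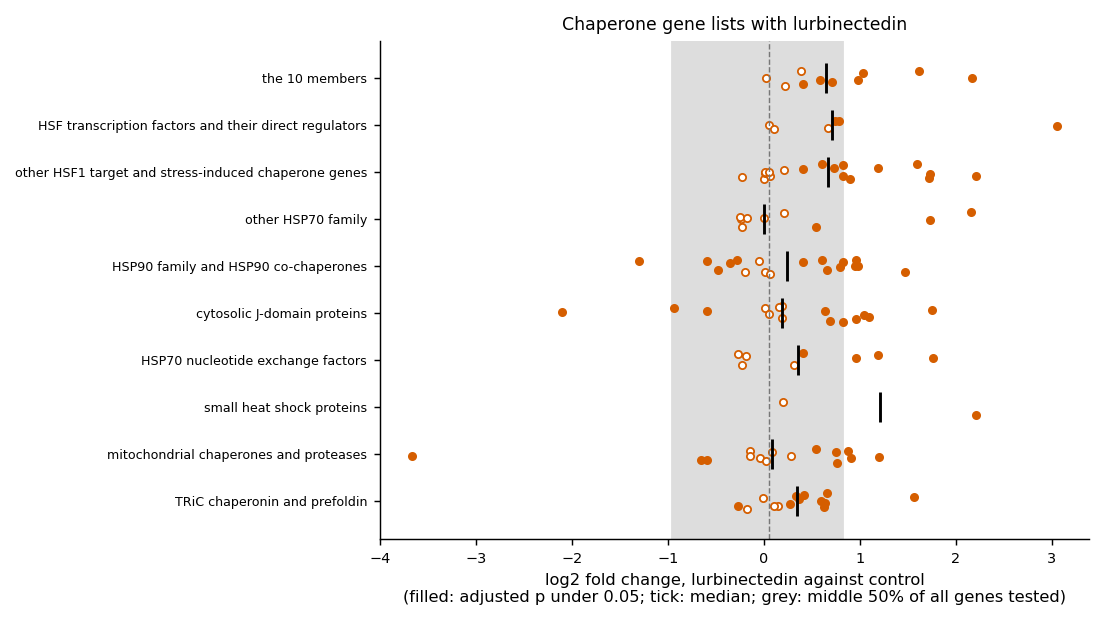
Log2 fold change of lurbinectedin against control for the 10 heat shock genes and the tested genes of 9 chaperone lists, 1 point per gene, filled where the adjusted p was under 0.05; the tick is the list's median, the dashed line the median of all genes at 0.05 and the grey band the middle 50% of all genes. CLPB lies at -3.67 and IER5 at 3.06, and most list medians fall inside the grey band.

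Genes whose pattern over the 12 libraries was most like that of a member were found by the root mean square difference of log2(CPM + 0.5), centred on the control mean, among 10311 genes with a mean of at least 5 CPM. For DNAJB1 these were ARFGAP2 (0.0520), RMDN3 (0.0528) and TINF2 (0.0566). For HSPD1 they were CACYBP (0.0614), DDX52 (0.0729) and PPM1G (0.0753). The 3 genes nearest to DNAJB1 had centred means of 0.99 to 1.03 in lurbinectedin libraries and 0.77 to 0.79 in combination libraries, beside 1.03 and 0.82 for DNAJB1 itself. Those nearest to HSPD1 stayed within -0.07 and 0.06 with lurbinectedin.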

How the data were processed

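The deposited values are raw read counts per gene with each gene's exon length, 1 table per library, as the authors made them. Per the submitters' processing notes, the tools were fastp 0.23.2, STAR 2.7.9, Subread and featureCounts, on build hg38. The annotation release, the strand setting and the handling of multi-mapping reads are not given in the sources used here. Where a gene identifier and its version also occur in GENCODE 29 (37318 of them), the deposited position was the same there. Of the identifiers, 60507 (99.8%) matched a symbol. The treatment label gave each library's group, and the title its number.

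Counts were tested in edgeR 4.0.16 (R 4.3.3) with TMM scaling, filterByExpr, robust quasi-likelihood dispersions and a separate mean for each of the 4 groups in all 12 libraries. Each of 6 contrasts was adjusted over 16683 genes. Standard errors came from the F statistic. CPM uses the TMM effective library size, or total counts for the markers of cell type, and TPM uses the deposited length. The procedure was tested on simulated data. The members and lists were chosen with earlier results of these data known. A tumour marker is not reported here. Besides the members, HSF1, HSF2, BAG3 and HSPA9 were named, the genes of each list with the smallest adjusted p (at most 3 in each comparison with control), and the 3 genes most like DNAJB1 and HSPD1 in pattern. Alternatives were DESeq2 1.42.0 and its size factors, library size as the only scaling, 2 other filters, a replicate block, only the groups compared, an adjusted p under 0.01, HSPA1A and HSPA1B summed, each library left out in turn, and teriflunomide replicate 3 and combination replicate 2 left out together. Running them for the chaperone lists was chosen after seeing the data.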

Additional observations from a re-analysis of the deposited data

Results flagged for a closer look

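HSPA2, a testis-enriched HSP70 gene outside the 10 members, was the only tested gene of the chaperone lists called for the interaction with all 12 libraries. Of all genes, 0.258% were called there. A gene that was not called is not shown to lack a difference, and the other list genes were not read for the interaction in the alternatives. Teriflunomide raised it from 3.68 ± 0.301 to 6.26 ± 0.217 CPM (SD, n = 3), while the combination was at 14.2 ± 0.604 CPM and lurbinectedin at 16.4 ± 0.358. The interaction was -0.97 on the log2 scale (SE 0.16, adjusted p = 0.0232 by edgeR, over 16683 genes). The call was lost with library size as the only scaling (-0.82, adjusted p = 0.358), with no filter on low counts (adjusted p = 0.0538), with the replicate number as a block (adjusted p = 0.110) and without any 1 of control replicates 1 to 3, teriflunomide replicates 1 and 2, lurbinectedin replicates 1 to 3 or combination replicate 1 (adjusted p = 0.0582 to 0.135).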

How the results depend on the processing

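Across 6 contrasts, the 7 calls for lurbinectedin against control, the 6 for the combination against control and the 7 for the combination against teriflunomide stayed within 1.5 times their number in every alternative, among them DESeq2. Which members were called was less fixed. With library size only, lurbinectedin had 6 higher and 1 lower and the combination 5 higher and 1 lower. Without combination replicate 2, the combination against control had 6 higher and 1 lower. The lower call was HSPD1 each time. The single call for teriflunomide against control became 2 with no filter on low counts and with DESeq2 (HSP90AB1 and HSPE1), 0 at an adjusted p under 0.01, 4 without teriflunomide replicate 3 and combination replicate 2 together, and 0 to 1 with 1 library left out. The combination against lurbinectedin had 7 calls and the interaction 1 without both libraries. Same-numbered libraries did not deviate together (correlations -0.51 to 0.211, 4 of 18 pairs over 0.1, 1 of 12 libraries closest to its own number). The replicate block gave 0 calls among the members for teriflunomide against control, 415 genes in all compared with 1002, and changed no other count of members. For all genes, the alternatives moved the teriflunomide count from 1002 to 265 with library size only, 1890 with DESeq2, 1800 with no filter, 283 with only the groups compared, 230 at an adjusted p under 0.01, 2757 without both libraries and 216 to 1555 with 1 library left out (216 to 265 without a control library, 644 without teriflunomide replicate 2, 1555 without teriflunomide replicate 3). For the combination against lurbinectedin the 0 calls over all genes became 584 with DESeq2, 612 with no filter, 94 with only the groups compared, 259 without combination replicate 2 and 3640 without both libraries, and for the interaction 43 became 8 with the block, 6 with library size only, 195 with no filter, 256 with DESeq2, 5 at an adjusted p under 0.01, 1839 without both libraries and 2 to 616 with 1 library left out (616 without teriflunomide replicate 3).

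For the chaperone lists with teriflunomide, the higher and lower counts of 5 and 7 became 1 and 0 with library size only, 1 and 1 with the block, with an adjusted p under 0.01 and with only the groups compared, 3 higher with no filter, 14 lower with DESeq2, 29 lower without both libraries, and 1 to 5 and 0 to 14 with 1 library left out (14 without teriflunomide replicate 3). The 11 lower with lurbinectedin became 20 with library size only, 21 with only the groups compared and 19 without both libraries. The 16 lower with the combination became 8 at an adjusted p under 0.01, 25 without both libraries, and 10 to 15 with 1 library left out (10 without control replicate 2).

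Signs changed in these cases, none of them called in either fit unless said. For lurbinectedin against control, HSPD1 was at -0.0042 with DESeq2 or its size factors and -0.054 with no filter. With library size only it was at -0.21 (called lower), HSPE1 at -0.0085, HSPB6 at -0.026 and HSF2 at -0.18, and HSF2 was at -0.018 with no filter. With library size only, HSPA8 was at -0.051 and HSF2 at -0.035 for the combination against control, HSPB1 at 0.036 for the combination against lurbinectedin, and HSPA1B at 0.055, HSPA8 at 0.083 and HSPD1 at 0.095 for the interaction. With a filter of 1 CPM, HSPD1 was at 0.020 for the combination against teriflunomide. Without both libraries, HSPA1A, HSPA1B and DNAJB1 were at 0.14, 0.0057 and 0.15 for teriflunomide against control, HSPB1 at -0.024 for the combination against teriflunomide, and HSPH1 at -0.033 and HSPE1 at -0.042 for the interaction. With 1 library left out, the ranges that crossed 0 were -0.39 to 0.14 for HSPA1A, -0.28 to 0.0047 for HSPA1B and -0.17 to 0.15 for DNAJB1 with teriflunomide (above 0 without teriflunomide replicate 3), -0.016 to 0.050 for HSPD1 with lurbinectedin, -0.13 to 0.070 for HSPD1 in the combination against teriflunomide, and -0.16 to 0.20 for HSPB1 and -0.23 to 0.036 for HSPH1 in the combination against lurbinectedin. For the interaction they were -0.19 to 0.13 for HSPA1B, -0.16 to 0.027 for HSPA8, -0.14 to 0.065 for HSPD1, -0.34 to 0.044 for HSPB1, -0.10 to 0.15 for HSPH1 and -0.13 to 0.13 for HSPE1. The causes were not tested. Of 2224 values of single genes under alternatives, 2013 kept direction and side of the threshold, 122 lost a call, 42 gained one and 47 changed sign. Low counts limit HSPB1 and HSPA1A most.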
